A study of Mus musculus with 6 samples.

Results

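The machinery that copies DNA in S phase was followed through the conversion of mouse epiblast stem cells into oligodendrocytes, using 36 genes of DNA replication and its G1/S control. The members were fixed by symbol as a list of replication and S phase genes, and each was found as a transcript that carries only that symbol, the one with the highest mean where a gene had several. All 36 were measured among 19938 genes, and no filter on low values was applied. The study holds 6 cultures of strain 129 cells, each on 1 whole-transcript array. They are 1 culture of epiblast stem cells (EpiSCs), which are pluripotent cells of the postimplantation embryo kept in serum replacement and FGF2, and 1 culture of patterned neural rosettes after 5 days of SB431542, Dorsomorphin, Noggin, retinoic acid and sonic hedgehog (SHH). There are also 2 cultures of oligodendrocyte progenitor cells (OPCs) made from dissociated rosettes and expanded with FGF2, PDGF-AA and SHH, at passages 11 and 3. The last 2 are oligodendrocytes at passages 11 and 3, for which thyroid hormone was added and FGF2 and PDGF-AA were withdrawn. The labels name no cell line, and they describe no separate cultures beyond the passages. The EpiSC and rosette samples have no replicate and add nothing to the spread. Errors and p-values between cell types thus rest on the gap between passages 11 and 3 within OPCs and within oligodendrocytes. That gap holds any effect of passage as well as technical spread, so it does not measure the spread between like cultures.

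DNA replication begins when the origin recognition complex, with Cdc6 and Cdt1, loads the ring-shaped MCM helicase onto origins in G1. At the start of S phase kinases recruit Cdc45 and the GINS complex, which switch the helicase on, and polymerases, the sliding clamp, flap nuclease and ligase then copy both strands while nucleotide synthesis and histone deposition keep pace. Most of these genes are transcribed in bursts at the G1/S border by E2F factors, which pocket proteins such as Rb1 hold in check. OPCs in culture divide under PDGF-AA, and oligodendrocytes leave the cell cycle as they mature.

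Cell type markers fitted the labels. The mean log2 value of 5 EpiSC markers was 12.9 in EpiSCs and between 7.89 and 8.29 in the other 5 arrays. The 5 oligodendrocyte markers averaged 12.9 and 12.5 in oligodendrocytes of passages 11 and 3, against 9.09 and 9.03 in OPCs of passages 11 and 3. Marker lists of other cell types were high on some arrays too, which does not show that those cells were present. The 6 OPC markers still averaged 11.9 in oligodendrocytes at each passage, against 12.3 and 12.2 in OPCs of passages 11 and 3, and the 6 neuron markers averaged 11.9 in the rosette, against 8.01 in EpiSCs. The 6 astrocyte markers averaged 10.5 and 11.3 in oligodendrocytes of passages 11 and 3, with Gfap at 8.69 and 10.50. Microglia and endothelial lists lay between 7.78 and 8.15 on every array, below the median of 8.64 over all transcripts. The array medians lay between 8.60 and 8.66. Values are log2 expression values and differences are log2 differences. They compare 1 gene between arrays, since the probes of different genes have no common scale.

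The replication genes were highest in EpiSCs and lowest in oligodendrocytes, with the rosette and OPCs between them at like levels. EpiSCs held the highest of the 6 values for 28 of 36 members (background over all genes 26.1%), and the passage 11 oligodendrocytes held the lowest for 34 (background 20.0%). The exceptions at the low end were Fen1 and Slbp, which were lowest in oligodendrocytes of passage 3. Both oligodendrocyte arrays lay below all other 4 arrays for 34 members, all but Orc6 and E2f2 (background 11.9%). The mean over the 36 genes was 11.5 in EpiSCs, 11.0 in the rosette, 10.9 and 11.1 in OPCs of passages 11 and 3, and 9.81 and 10.3 in oligodendrocytes of passages 11 and 3. In a bulk sample, fewer dividing cells and less RNA per cell cannot be told apart.

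**Figure D1:**
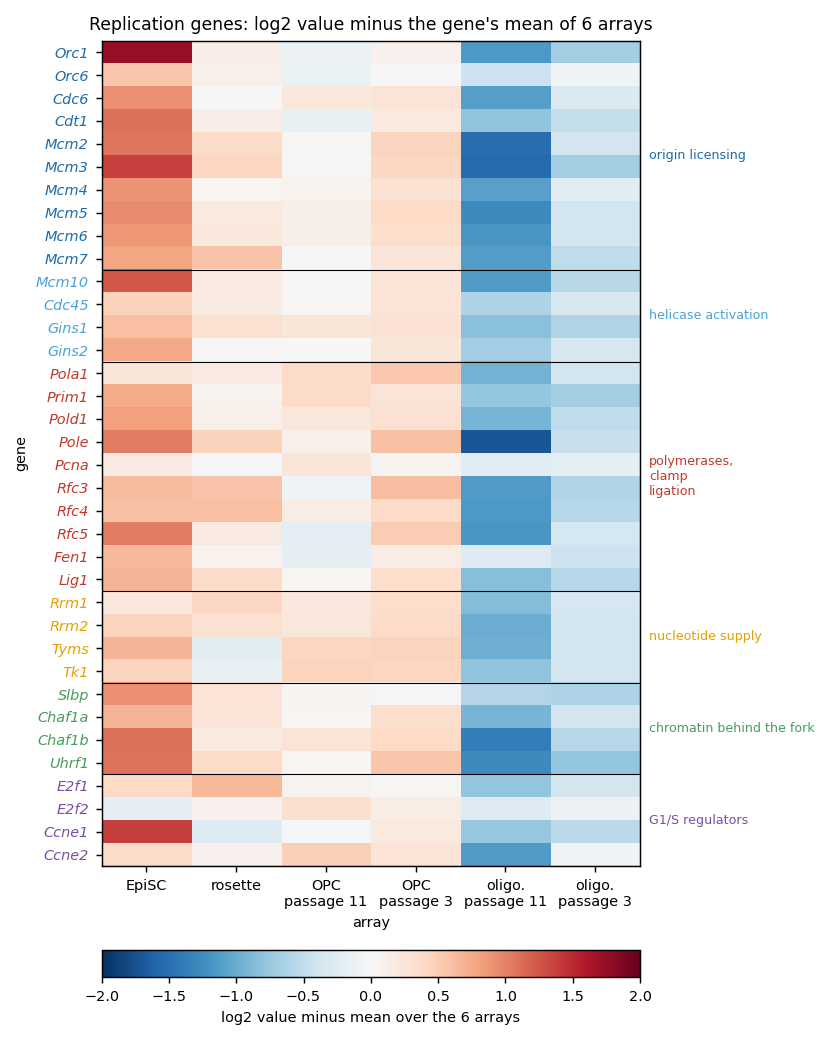
Colours show the log2 value of each gene minus its own mean over the 6 arrays, with genes in rows grouped by role and arrays in columns from EpiSCs to oligodendrocytes. Red, above the gene's mean, fills the EpiSC column for every gene but E2f2, and 28 of 36 genes are highest there. The deepest blue stands in the passage 11 oligodendrocyte column, where 34 are lowest.

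Origin licensing genes were lower in oligodendrocytes than in OPCs at both passages, all 10 of them (background over all genes 33.0%), with a median difference of -0.94. Mcm2, a subunit of the replicative helicase, stood at 12.86 in EpiSCs, 12.16 in the rosette, 11.81 and 12.24 in OPCs of passages 11 and 3, and 10.27 and 11.40 in oligodendrocytes of passages 11 and 3. Mcm3, another subunit of the same ring, stood at 11.96 in EpiSCs, 11.03 in the rosette, 10.62 and 11.01 in OPCs of passages 11 and 3, and 9.06 and 9.92 in oligodendrocytes of passages 11 and 3. The oligodendrocyte and OPC arrays of these genes did not overlap, and the passage 11 oligodendrocytes were the lowest array for each. The difference of oligodendrocytes from OPCs was -1.33 ± 0.32 for Mcm3 (SE, n = 2 each), which is 2.52-fold lower. For Mcm2 it was -1.19 ± 0.39, and for Mcm5 -1.08 ± 0.32. Mcm5 stood at 12.73 in EpiSCs, 11.97 in the rosette, 11.89 and 12.18 in OPCs of passages 11 and 3, and 10.51 and 11.40 in oligodendrocytes of passages 11 and 3. The 6 subunits of the helicase behaved alike. All 6 were at least 2-fold lower in oligodendrocytes than in OPCs at passage 11 (background 2.48%), with a median difference of -1.33. At passage 3 that median was -0.77, and Mcm3 alone of the 6 passed that size (background 0.527%). Mcm6 stood at 9.94 and 10.73 in oligodendrocytes of passages 11 and 3, against 11.22 and 11.45 in OPCs of those passages. Mcm7 stood at 11.11 and 11.72 in oligodendrocytes of passages 11 and 3, against 12.23 and 12.48 in OPCs of those passages. Mcm4 differed by -1.16 at passage 11 and -0.54 at passage 3.

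The loading factors that bring the helicase to origins were less uniform. Orc1, the largest subunit of the origin recognition complex, stood at 10.73 in EpiSCs, 9.13 in the rosette, 8.87 and 9.09 in OPCs of passages 11 and 3, and 7.85 and 8.29 in oligodendrocytes of passages 11 and 3. It was the gene furthest above its own mean in EpiSCs, and passage 11 oligodendrocytes minus EpiSCs was -2.88 for it, beside -2.91 for Mcm3, the widest such difference of the list. Cdc6, a loading ATPase, stood at 8.17 and 8.98 in oligodendrocytes of passages 11 and 3, against 9.49 and 9.54 in OPCs of those passages. Cdt1, its partner in loading, differed by about the same amount at each passage, -0.67 at passage 11 and -0.68 at passage 3. Orc6, the smallest subunit of the origin complex, was the exception among all 36 genes: it stood at 10.28 and 10.61 in oligodendrocytes of passages 11 and 3, against 10.56 and 10.69 in OPCs of those passages. The groups overlapped for this gene alone, and its difference of -0.18 ± 0.17 was the smallest of the list.

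Promoter windows are shown for the 5 members whose window holds at least 2 E2F motifs, and 4 of these are helicase subunits. The window of Mcm2, another subunit, holds no E2F motif, and Mcm4 had no window. A link between the motif and expression was not tested. Each window runs from 250 bases before to 50 bases after an annotated transcription start, from RefSeq on build GRCm38.p6, and is written along the gene's strand. Capitals mark the E2F motif, searched on both strands as TTTCCCGC, TTTCGCGC, TTTGCCGC and TTTGGCGC. Matches on opposite strands overlap in Mcm5 and in Mcm6 and there appear as 1 longer run of capitals. The windows lie at chr1:20820263-20820562 on the minus strand for Mcm3, chr8:75109259-75109558 on the plus strand for Mcm5, chr1:128359656-128359955 on the minus strand for Mcm6, chr5:138171834-138172133 on the minus strand for Mcm7 and chr5:151651159-151651458 on the minus strand for Rfc3. Mcm7 has a second annotated start, whose window holds no E2F motif.
Mcm3: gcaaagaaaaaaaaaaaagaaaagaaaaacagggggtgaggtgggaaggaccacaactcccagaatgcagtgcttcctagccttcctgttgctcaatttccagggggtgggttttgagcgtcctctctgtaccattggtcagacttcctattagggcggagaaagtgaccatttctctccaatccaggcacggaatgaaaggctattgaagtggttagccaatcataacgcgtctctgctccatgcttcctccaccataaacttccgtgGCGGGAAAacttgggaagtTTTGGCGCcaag
Mcm5: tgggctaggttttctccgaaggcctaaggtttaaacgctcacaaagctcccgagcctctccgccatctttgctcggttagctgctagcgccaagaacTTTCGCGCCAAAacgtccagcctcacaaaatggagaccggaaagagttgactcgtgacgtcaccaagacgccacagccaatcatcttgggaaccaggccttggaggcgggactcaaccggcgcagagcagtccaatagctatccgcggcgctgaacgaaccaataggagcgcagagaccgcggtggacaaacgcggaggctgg
Mcm6: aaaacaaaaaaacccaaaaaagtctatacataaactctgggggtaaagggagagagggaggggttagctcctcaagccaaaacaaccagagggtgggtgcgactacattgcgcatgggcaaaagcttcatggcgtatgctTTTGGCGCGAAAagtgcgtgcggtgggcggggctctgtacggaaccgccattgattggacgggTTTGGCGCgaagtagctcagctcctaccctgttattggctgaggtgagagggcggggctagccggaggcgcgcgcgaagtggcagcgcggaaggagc
Mcm7: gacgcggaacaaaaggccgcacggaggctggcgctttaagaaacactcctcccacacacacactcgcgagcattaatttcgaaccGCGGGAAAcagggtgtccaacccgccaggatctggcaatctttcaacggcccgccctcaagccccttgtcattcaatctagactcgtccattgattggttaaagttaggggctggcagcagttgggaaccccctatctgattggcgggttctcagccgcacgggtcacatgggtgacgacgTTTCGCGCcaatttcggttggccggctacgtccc
Rfc3: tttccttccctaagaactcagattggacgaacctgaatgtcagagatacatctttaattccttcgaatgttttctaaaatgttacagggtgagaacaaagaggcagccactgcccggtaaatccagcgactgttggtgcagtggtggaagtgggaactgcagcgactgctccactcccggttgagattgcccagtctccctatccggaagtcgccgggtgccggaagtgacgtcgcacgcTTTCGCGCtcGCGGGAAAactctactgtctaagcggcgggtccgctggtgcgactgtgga

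Helicase activation genes differed less. Helicase activation genes had a median difference of oligodendrocytes from OPCs of -0.81. All 4 were lower at both passages (background 33.0%) and without overlap between the groups (background 21.1%). Mcm10, which helps the helicase to open the origin, stood at 11.51 in EpiSCs, 10.42 in the rosette, 10.28 and 10.52 in OPCs of passages 11 and 3, and 9.12 and 9.70 in oligodendrocytes of passages 11 and 3. Gins1, a GINS subunit, stood at 10.36 in EpiSCs, 10.06 in the rosette, 10.00 and 10.04 in OPCs of passages 11 and 3, and 8.93 and 9.16 in oligodendrocytes of passages 11 and 3. It ranged from 10.00 to 10.36 over the first 4 arrays, and its difference of oligodendrocytes from OPCs, -0.98 ± 0.15, was among the least variable (limma adjusted p = 0.0970). Cdc45 and Gins2, which complete the active helicase, differed by -0.62 ± 0.18 and -0.65 ± 0.19.

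Polymerase, clamp and ligation genes held both the largest and some of the smallest differences. Pole, the catalytic subunit of the leading-strand polymerase, stood at 11.64 in EpiSCs, 11.06 in the rosette, 10.71 and 11.19 in OPCs of passages 11 and 3, and 8.90 and 10.14 in oligodendrocytes of passages 11 and 3. Its difference of oligodendrocytes from OPCs, -1.43 ± 0.43, was the largest of the 36, and it was 3.50-fold lower at passage 11 and 2.08-fold lower at passage 3. Prim1, the primase subunit that starts each new strand, stood at 11.52 in EpiSCs, 10.85 in the rosette, 11.15 and 11.04 in OPCs of passages 11 and 3, and 10.01 and 10.08 in oligodendrocytes of passages 11 and 3. The passages hardly separated for this gene, and its difference of -1.05 ± 0.14 had the lowest limma adjusted p of the list, 0.0741. Pola1 and Pold1, catalytic subunits of the priming and the lagging-strand polymerases, differed by -1.12 ± 0.22 and -0.98 ± 0.19. The clamp loader subunit Rfc3 stood at 9.69 and 10.21 in oligodendrocytes of passages 11 and 3, against 10.74 and 11.43 in OPCs of those passages. Rfc4 and Rfc5, which belong to the same loader, differed by -1.11 ± 0.23 and -0.92 ± 0.35. Rfc5 and Rfc3 had the widest gaps between the OPC arrays, with Rfc5 at 11.68 at passage 11 against 12.37 at passage 3.

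The sliding clamp and the flap nuclease stood apart from the polymerases. Pcna stood at 13.30 in EpiSCs, 13.08 in the rosette, 13.35 and 13.16 in OPCs of passages 11 and 3, and 12.87 and 12.94 in oligodendrocytes of passages 11 and 3. Oligodendrocytes were 1.28-fold below OPCs for this gene, a difference of -0.35 ± 0.15, and a second Pcna transcript gave -0.35 as well. Pcna also serves DNA repair. Fen1, which trims the flaps of lagging-strand fragments, stood at 9.56 and 9.40 in oligodendrocytes of passages 11 and 3, against 9.64 and 9.97 in OPCs of those passages, a difference of -0.33 ± 0.17. Lig1, which seals those fragments, was further apart, at 9.85 and 10.13 in oligodendrocytes of passages 11 and 3, against 10.74 and 11.05 in OPCs of those passages.

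Nucleotide supply genes stood close together in OPCs and EpiSCs, with OPCs minus EpiSCs between -0.25 and 0.05 over the 4 genes. Rrm2, the small subunit of ribonucleotide reductase, stood at 12.53 in EpiSCs, 12.38 in the rosette, 12.31 and 12.45 in OPCs of passages 11 and 3, and 11.08 and 11.71 in oligodendrocytes of passages 11 and 3. Rrm1, the large subunit, stood at 12.67 in EpiSCs, 12.85 in the rosette, 12.65 and 12.79 in OPCs of passages 11 and 3, and 11.58 and 12.11 in oligodendrocytes of passages 11 and 3. Both stayed within a narrow range until the oligodendrocyte arrays. The thymidine genes had a dip in the rosette. Tyms, which makes thymidylate, stood at 11.61 in EpiSCs, 10.69 in the rosette, 11.35 and 11.36 in OPCs of passages 11 and 3, and 9.95 and 10.56 in oligodendrocytes of passages 11 and 3. Tk1, the salvage thymidine kinase, stood at 11.36 in EpiSCs, 10.77 in the rosette, 11.36 and 11.35 in OPCs of passages 11 and 3, and 10.12 and 10.55 in oligodendrocytes of passages 11 and 3. Oligodendrocytes minus OPCs lay between -1.10 and -0.88 over the 4 genes, with all 4 at least 2-fold lower at passage 11 (background 2.48%) and none at passage 3. A second Tk1 transcript differed by -1.10, beside -1.02 for the one used.

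Genes that rebuild chromatin behind the fork had a median of oligodendrocytes minus OPCs of -1.07. Uhrf1, which reads half-methylated DNA for the maintenance methyltransferase, stood at 11.86 in EpiSCs, 11.16 in the rosette, 10.82 and 11.34 in OPCs of passages 11 and 3, and 9.50 and 10.00 in oligodendrocytes of passages 11 and 3. Its difference was even across the passages, -1.32 at passage 11 and -1.34 at passage 3. Chaf1b, a subunit of the chromatin assembly factor that deposits new histones, stood at 12.28 in EpiSCs, 11.37 in the rosette, 11.43 and 11.57 in OPCs of passages 11 and 3, and 9.78 and 10.60 in oligodendrocytes of passages 11 and 3. Its difference was -1.31 ± 0.29, and that of its partner Chaf1a was -0.84 ± 0.24. Slbp, which binds histone mRNA, stood at 11.30 in EpiSCs, 10.64 in the rosette, 10.45 and 10.38 in OPCs of passages 11 and 3, and 9.80 and 9.78 in oligodendrocytes of passages 11 and 3. Its values were lower at each later stage, with the passages almost equal.

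The G1/S regulators did not share a pattern before the oligodendrocyte arrays. Ccne1, a cyclin E that drives entry into S phase, stood at 12.66 in EpiSCs, 11.02 in the rosette, 11.26 and 11.47 in OPCs of passages 11 and 3, and 10.53 and 10.75 in oligodendrocytes of passages 11 and 3. EpiSCs stood above every other array for it. Ccne2, the other cyclin E gene, stood at 10.25 in EpiSCs, 9.97 in the rosette, 10.36 and 10.16 in OPCs of passages 11 and 3, and 8.75 and 9.79 in oligodendrocytes of passages 11 and 3. It set the passages furthest apart, with oligodendrocytes minus OPCs at -1.60 at passage 11 and -0.36 at passage 3, although the passage 3 oligodendrocytes were also below both OPC arrays. E2f1, an activator of S phase genes, was highest in the rosette, at 10.69 in EpiSCs, 10.95 in the rosette, 10.36 and 10.31 in OPCs of passages 11 and 3, and 9.50 and 9.92 in oligodendrocytes of passages 11 and 3. E2f2, a second activator, was highest in OPCs, at 8.65 in EpiSCs, 8.90 in the rosette, 9.15 and 8.97 in OPCs of passages 11 and 3, and 8.56 and 8.70 in oligodendrocytes of passages 11 and 3. Its values lay close to the median of all transcripts.

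Between oligodendrocytes and OPCs the replication genes were lower together, yet single genes did not pass the test. All 36 members were lower at both passages (background 33.0%), and for 35 both oligodendrocyte arrays lay below both OPC arrays (background 21.1%). The median difference was -0.96, ranging from -1.43 for Pole to -0.18 for Orc6, beside a median of 0.00 over all genes. With limma, 0 of 36 members were called lower and 0 higher at an adjusted p under 0.05 (background 0.0502% lower and 0.396% higher), while 33 were lower and 0 higher at an unadjusted p under 0.05 (background 6.81% lower and 5.52% higher). In the fit with passage as a replicate block, 1 member was called lower, Uhrf1, beside 11 of 19938 genes. Its limma adjusted p was 0.04996 in that fit, just under the threshold, and 0.152 in the main fit. The block fit keeps 1 residual degree of freedom, the disagreement between the passage gaps of OPCs and oligodendrocytes. The median depended on which oligodendrocyte array was left out. It was -1.24 without the passage 3 oligodendrocytes and -0.63 without the passage 11 oligodendrocytes. Both of those fits take the spread from the OPC pair alone. Leaving out 1 OPC array gave medians of -0.85 without passage 3 and -1.01 without passage 11.

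**Figure D2:**
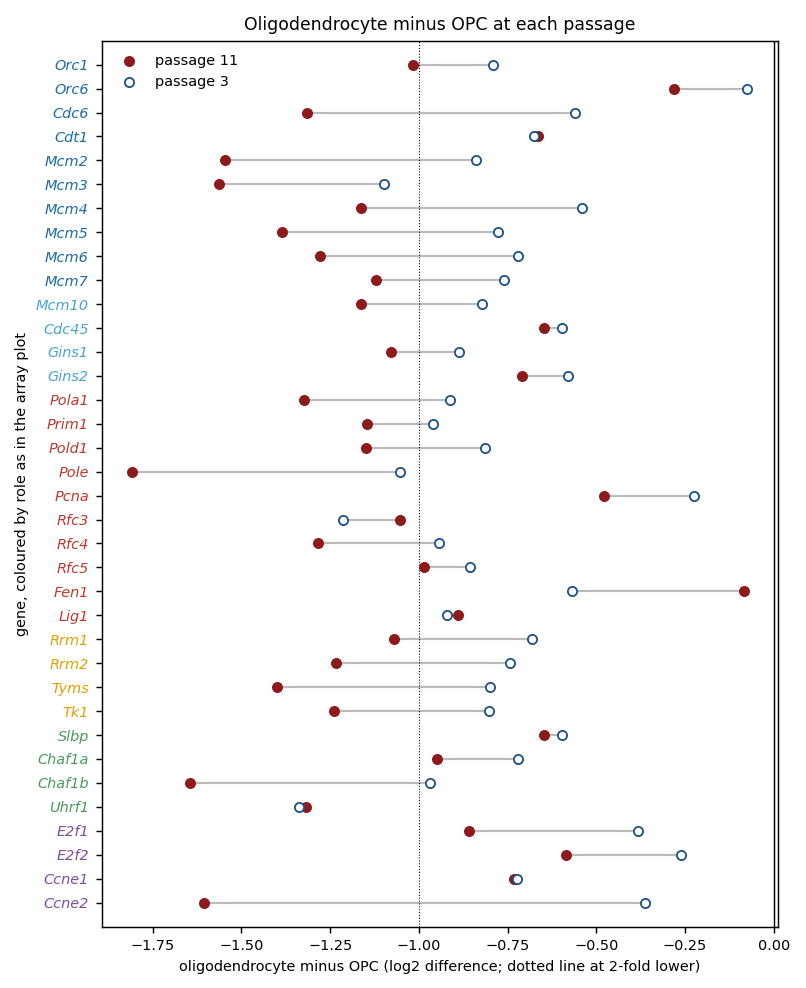
Each row is a gene, and the points give oligodendrocyte minus OPC as a log2 difference at passage 11 (filled) and passage 3 (open), each from 1 array of each cell type, with the dotted line at 2-fold lower. All points lie left of 0, and 23 of 36 filled points but 4 of 36 open ones lie beyond the dotted line.

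The differences were larger at the later passage. Oligodendrocytes were at least 2-fold below OPCs for 23 of 36 members at passage 11 (background 2.48%) and for 4 of 36 at passage 3, namely Mcm3, Pole, Rfc3 and Uhrf1 (background 0.527%). The same 4 passed that size at both passages (background 0.371%). No member was 2-fold higher at passage 11, at passage 3 or at both (background 2.55%, 2.65% and 1.14%). The median difference was -1.13 at the later passage, against -0.77 at the earlier one, and the difference was more negative at passage 11 for 31 of 36 (background 48.9%). The 5 exceptions were Cdt1, Rfc3, Fen1, Lig1 and Uhrf1. This difference between the passages has no test, because 1 array stands behind each value. The oligodendrocyte markers were at a mean of 12.9 in oligodendrocytes of passage 11 against 12.5 in those of passage 3, and at 9.09 against 9.03 in OPCs. Their part in the result was not tested.

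Passage 11 cultures held lower replication gene values than passage 3 cultures in each cell type. The gap was wider in oligodendrocytes, a difference that was not tested. It is the same contrast as the larger oligodendrocyte minus OPC difference at passage 11, from the same arrays, and not a further result. In oligodendrocytes 34 of 36 members were lower at passage 11 (background 42.9%), with a median of -0.53, and in OPCs 29 of 36 were (background 45.5%), with a median of -0.22. Astrocyte markers differed between the passages too. The 6 genes were at a mean of 10.5 at passage 11 against 11.3 at passage 3 in oligodendrocytes, and at 10.3 against 11.0 in OPCs, and their part in the result was not tested. Among the members Pole had the widest gap in oligodendrocytes, at 8.90 at passage 11 against 10.14 at passage 3, and stood at 10.71 against 11.19 in OPCs. Mcm2 followed in oligodendrocytes with -1.13, beside -0.42 in OPCs. With limma, 0 of 36 members were called (background 0.0% in each direction), and at an unadjusted p under 0.05 14 were lower and 0 higher (background 8.22% lower and 5.67% higher). The lowest adjusted p was 0.357. The single residual degree of freedom of this fit is the disagreement between the cell types, so its errors do not measure the spread between cultures of a passage.

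OPCs and the rosette held like amounts of most replication transcripts, and differences over all genes were about as small. The median of OPCs minus the rosette was -0.02, beside 0.02 over all genes. The median size of the difference, without its sign, was 0.16, beside 0.19 over all genes. OPCs were lower for 20 members (background 46.9%). The widest differences were 0.66 ± 0.28 for Tyms, 0.58 ± 0.23 for Tk1 and -0.62 ± 0.23 for E2f1 (limma adjusted p of 0.362, 0.320 and 0.292). No member was called, 0 of 36 in either direction (background 1.87% lower and 1.26% higher), and at an unadjusted p under 0.05 E2f1 was lower (background 9.75%) and Tk1 higher (background 5.63%). The rosette has 1 array, whose spread was taken from the OPC and oligodendrocyte pairs. The median changed sign without the passage 11 OPCs, to 0.09.

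**Figure D3:**
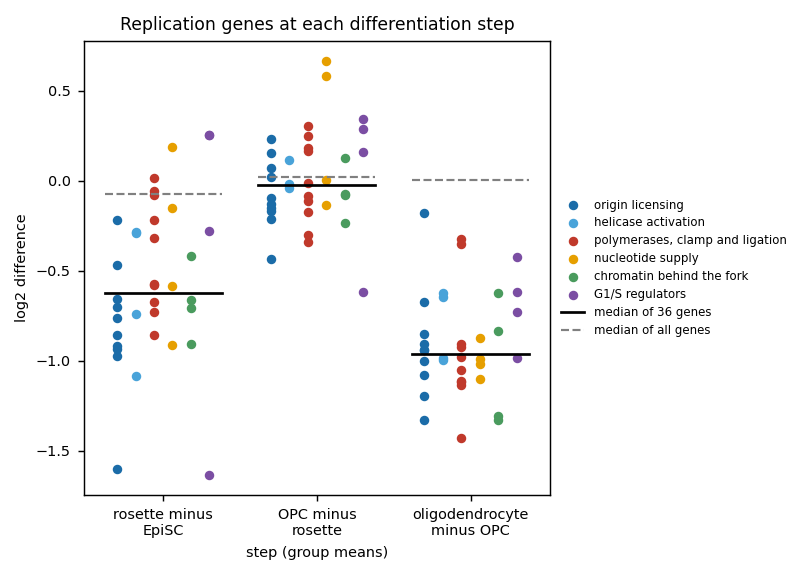
Points show the log2 difference of each of the 36 genes at the 3 steps of differentiation, coloured by role, with black bars at their median and dashed bars at the median of all genes. The black bar stands at -0.62 for rosette minus EpiSC, at -0.02 for OPC minus rosette and at -0.96 for oligodendrocyte minus OPC. The last 2 steps share the OPC arrays.

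Against EpiSCs, replication genes were lower by the rosette stage and stayed so in OPCs. In the rosette 32 of 36 members were below EpiSCs (background 58.7%), with a median of -0.62 beside -0.07 over all genes. The 3 at least 2-fold lower were Ccne1 at -1.63, Orc1 at -1.60 and Mcm10 at -1.09 (background 3.69%), and 0 were at least 2-fold higher (background 6.91%). The 4 genes above EpiSCs were E2f1 at 0.26, E2f2 at 0.25, Rrm1 at 0.18 and Rfc4 at 0.01. Licensing genes had a median of -0.81, against -0.37 for nucleotide supply and -0.01 for the G1/S regulators. With 1 array on each side, no test was made. All 6 neuron markers were higher in the rosette than in EpiSCs, with a median of 3.93, and their part in the result was not tested.

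OPCs held 3 members that fell below EpiSCs by the test. Orc1 fell by 1.75 ± 0.25 (limma adjusted p = 0.0192), Ccne1 by 1.29 ± 0.20 (adjusted p = 0.0250) and Slbp by 0.89 ± 0.16 (adjusted p = 0.0402). Thus 3 of 36 were called lower and 0 higher (background 2.93% lower and 4.07% higher), 32 were lower by any amount (background 57.6%) and the median was -0.63. At an unadjusted p under 0.05, 9 were lower and 0 higher (background 10.4% lower and 10.2% higher). With passage as a replicate block 8 were called lower, beside 1059 of 19938 genes. The additional genes were Cdt1, Mcm3, Mcm10, Rfc5 and Uhrf1. None of the 3 calls held when either OPC array was left out, which leaves 1 array on each side. Without the passage 11 OPCs the adjusted p was 0.0828 for Orc1, 0.144 for Ccne1 and 0.226 for Slbp, and without the passage 3 OPCs it was 0.0568, 0.0895 and 0.255 for those genes. Leaving out either oligodendrocyte array could not move the median of -0.63, since OPCs minus EpiSCs uses no oligodendrocyte array. It changes only the spread. Slbp also missed the threshold with an intensity trend in the variance (adjusted p = 0.0737). Over all alternatives the adjusted p ran from 1.52e-05 to 0.0828 for Orc1, from 0.000211 to 0.144 for Ccne1 and from 0.00271 to 0.255 for Slbp.

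Other genes of the same machinery were lower in oligodendrocytes too. Of 46 further replication genes measured, 44 were lower in oligodendrocytes than in OPCs (background 49.8%), with a median of -0.62. By limma 0 were called lower (background 0.0502%), while 29 were lower at an unadjusted p under 0.05 (background 6.81%). The widest differences were Pole2, a subunit of the leading-strand polymerase, at -1.27 ± 0.42, Chek1, the replication checkpoint kinase, at -1.20 ± 0.25, and Dna2, a nuclease and helicase, at -1.17 ± 0.27. Pold4 and Orc4 were the exceptions, at 0.38 and 0.08. All 19 mitotic genes measured were lower (background 49.8%), with a median of -1.17, at -1.59 at passage 11 and -0.76 at passage 3. Of these 0 were called by limma (background 0.0502% lower and 0.396% higher), and 18 were lower at an unadjusted p under 0.05 (background 6.81%). Kif23, a motor of cytokinesis, was at -1.48 ± 0.51 and Bub1, a spindle checkpoint kinase, at -1.48 ± 0.49. Whereas replication genes were lower in the rosette than in EpiSCs by a median of -0.62, the mitotic genes had a median of -0.14 there.

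**Figure D4:**
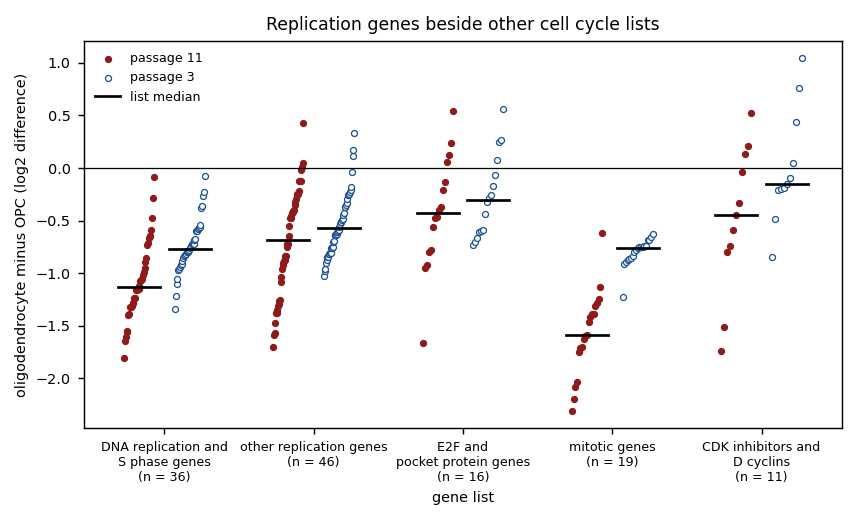
Points show oligodendrocyte minus OPC as a log2 difference for the members of 5 gene lists, sorted by size within each column, at passage 11 (filled) and passage 3 (open), with bars at the list median. The 36 replication genes and the 19 mitotic genes lie wholly below 0 at both passages, while the E2F and pocket protein list and the list of CDK inhibitors and D cyclins spread across 0.

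Regulators upstream of S phase differed between stages in mixed directions. Of 16 E2F and pocket protein genes, a list that includes E2f1 and E2f2, 12 were lower in oligodendrocytes than in OPCs (background 49.8%) with a median of -0.34. By limma 0 were called (background 0.0502% lower and 0.396% higher), while at an unadjusted p under 0.05 7 were lower (background 6.81%) and 1 higher (background 5.52%). Rbl1, a pocket protein of dividing cells, differed by -1.20 ± 0.34. Of 11 CDK inhibitors and D cyclins 7 were lower (background 49.8%). By limma 0 were called (background 0.0502% lower and 0.396% higher), while at an unadjusted p under 0.05 2 were lower (background 6.81%) and 1 higher (background 5.52%). Ccnd1, a D cyclin that answers to growth factors, was at 12.17 and 12.78 in oligodendrocytes of passages 11 and 3, against 13.69 and 13.27 in OPCs of those passages. Cdkn1c, a CDK inhibitor, was at 10.31 and 10.64 in oligodendrocytes of passages 11 and 3, against 9.78 and 9.59 in OPCs of those passages.

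Promoter windows of the replication genes often held an E2F motif. Windows were found for 31 of 36 members, 37 windows in all. A match in at least 1 window was found for 13 of 31 members (41.9%), beside 543 of 15614 measured genes (3.48%). By window, 13 of 37 (35.1%) held a match, beside 2.26% of all 32851 windows. The members with a match were Orc1, Cdc6, Cdt1, Mcm3, Mcm5, Mcm6, Mcm7, Pola1, Pold1, Rfc3, Lig1, Uhrf1 and E2f2. The CCAAT box, searched as CCAAT on both strands, was in 19 of 31 (61.3%), beside 41.7% of measured genes, and the cell cycle element known as CHR, searched as TTTGAA or TTCGAA, was in 6 of 31 (19.4%), beside 19.0%. Mitotic genes had a different makeup, with the E2F motif in 1 of 17 (5.88%), the CCAAT box in 15 of 17 (88.2%) and the CHR element in 13 of 17 (76.5%). In Mcm7 an E2F match and a CCAAT box overlap by 1 base. Oligodendrocytes minus OPCs had a median of -0.98 over the 13 members with an E2F motif and -0.90 over the 18 with a window and none. These are descriptions of letters in a window, not of bound sites.

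**Figure D5:**
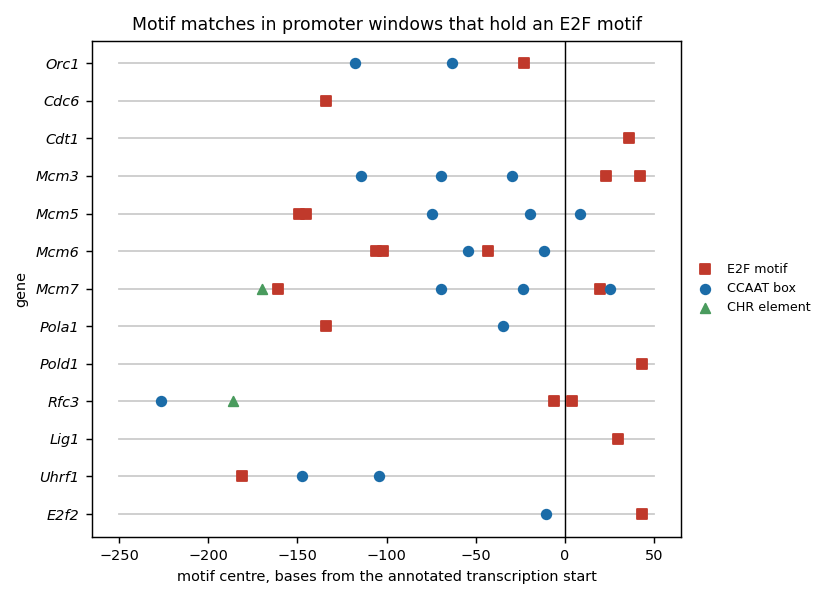
Each line is the promoter window of a gene with an E2F motif, drawn by distance in bases from the annotated transcription start, and symbols mark the centres of E2F motifs (squares), CCAAT boxes (circles) and CHR elements (triangles). Mcm6 carries 3 E2F motifs and Mcm3, Mcm5, Mcm7 and Rfc3 carry 2 each, while CHR elements are marked in Mcm7 and Rfc3. A second window of E2f2, which has no E2F motif and is not drawn, holds a CHR element too.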

How the data were processed

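RNA of 6 cultures was hybridised to 1 Affymetrix whole-transcript array each, from 150 ng of total RNA per the labels. The authors deposited log2 values from the RMA method, run in Affymetrix Expression Console as the submitters' processing notes list. RMA corrects background, equalises the array distributions and summarises probes, and its version is not given in the sources used here. Precision is limited by the number of arrays.

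Of 35556 transcripts, 21789 carried 1 gene symbol, 1621 several and 12146 none. The row with the highest mean was kept for the 999 genes with several rows, which left 19938 genes. Tests used limma (version 3.58.1, R 4.3.3), two-sided, with Benjamini-Hochberg adjustment over all genes and calls at 0.05. The 4 cell types were the groups of 1 fit over all 6 arrays, so the lone rosette and EpiSC arrays borrow the spread of the OPC and oligodendrocyte pairs. Passage was tested on 4 arrays with cell type as covariate. Rosette against EpiSC, and single passages, were counted at 2-fold without a test. The fits and the motif search were checked on simulated data with planted changes or motifs. The simulated spread was the same for all genes, so this checks the code and not how many real differences are missed.

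Oligodendrocytes were made from OPCs and carry the same passage numbers, so passage pairs the arrays per the labels. The passage deviations of the 2 cell types correlated at 0.503 over all genes, which are not independent replicates. Alternatives covered passage as a block, each replicate left out, dim genes, other rows, scaling and the variance trend. All 36 members are reported. From each other list, up to 4 genes with the widest difference in a comparison may be named, besides cell type markers by name and the exceptions in direction Pold4 and Orc4, which were picked after their values were seen. The members and lists were chosen with earlier results of these data known. Promoters of 31 members came from RefSeq windows, and no window was found for the other members.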

Additional observations from a re-analysis of the deposited data

Results flagged for a closer look

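For 7 genes the difference between passage 11 and passage 3 had opposite signs in the 2 cell types, from 1 array per passage and cell type, and the difference between the cell types was not tested. Ccne2 was at -1.04 in oligodendrocytes and 0.20 in OPCs. Tk1 was at -0.43 in oligodendrocytes and 0.0088 in OPCs, and E2f1 at -0.43 in oligodendrocytes and 0.04997 in OPCs. E2f2 was at -0.14 in oligodendrocytes and 0.18 in OPCs. Prim1 was at -0.0718 in oligodendrocytes and 0.12 in OPCs, and Pcna at -0.0645 in oligodendrocytes and 0.19 in OPCs. Fen1 was the reverse of the others, at 0.16 in oligodendrocytes and -0.32 in OPCs.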

How the results depend on the processing

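No result changed sign among those that were called. With passage as a replicate block, which pairs oligodendrocytes and OPCs of 1 passage, 1 member was called lower in oligodendrocytes against OPCs and 8 in OPCs against EpiSCs. The block also gave 734 genes lower and 472 higher in OPCs against the rosette, and 1059 lower and 1259 higher in OPCs against EpiSCs. It changed no other call among the members. The block fit sets the EpiSC and rosette arrays, which have no passage, midway between the passages and keeps 1 residual degree of freedom. Median centring gave 1 member called in oligodendrocytes against OPCs, Prim1, with 29 genes lower and 128 higher in all, a median of 0.0242 in OPCs against the rosette, and 1 gene in each direction between passages. Quantile normalization gave 0 genes lower and 43 higher in oligodendrocytes against OPCs, a median of 0.0338 in OPCs against the rosette, and 5 members at least 2-fold lower in the rosette against EpiSCs. An intensity trend gave 4 genes lower in oligodendrocytes against OPCs and 1 higher between passages. Without dim genes, which tests fewer genes, 211 were lower in OPCs against the rosette and 318 in OPCs against EpiSCs. The causes were not tested. Leaving out 1 array at a time, oligodendrocytes against OPCs had 0 to 32 members called lower, 0 to 1768 genes lower, 2 to 1151 higher and medians from -1.24 to -0.63. OPCs against the rosette had 0 to 1 members lower, 0 to 2 higher, 85 to 1769 genes lower, 71 to 1128 higher and medians from -0.14 to 0.0915. OPCs against EpiSCs had 0 to 20 members lower, 164 to 2027 genes lower, 306 to 2127 higher and medians from -0.71 to -0.51. Passage medians lay between -0.53 and -0.22, with no test because no residual degree of freedom was left. A group left with 1 array is assumed to vary like the others. No detection call was used, so low values can be background.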

Other observations

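Regulators of the G1/S transition differed between the early stages in both directions. Of the 16 E2F and pocket protein genes 10 were lower and 6 higher in OPCs than in EpiSCs, with a median of -0.06, and 1 was called lower and 2 higher by limma (background 2.93% lower and 4.07% higher). Cdkn2c, an inhibitor of the D cyclin kinases, stood at 7.23 in EpiSCs, 8.94 in the rosette, 10.98 and 10.67 in OPCs of passages 11 and 3, and 10.18 and 9.82 in oligodendrocytes of passages 11 and 3. It rose in OPCs by 1.89 ± 0.24 against the rosette and by 3.60 ± 0.24 against EpiSCs (limma adjusted p of 0.0232 and 0.00310). The pocket protein gene Rb1 stood at 9.13 in EpiSCs, 11.25 in the rosette, 10.97 and 10.61 in OPCs of passages 11 and 3, and 10.76 and 11.17 in oligodendrocytes of passages 11 and 3. Rb1 rose by 1.66 ± 0.26 and Rbl2, another pocket protein gene, by 1.60 ± 0.18 in OPCs against EpiSCs (adjusted p of 0.0263 and 0.0105). Against the rosette, OPCs had lower levels of Cdkn1c, a CDK inhibitor, by -2.01 ± 0.22, and of Tfdp2, an E2F partner, by -1.61 ± 0.19 (adjusted p of 0.0158 and 0.0182). E2f4, a repressive E2F, fell by 1.29 ± 0.25 in OPCs against EpiSCs (adjusted p = 0.0470).

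The D cyclin gene Ccnd2 stood at 11.57 in EpiSCs, 13.53 in the rosette, 13.42 and 13.63 in OPCs of passages 11 and 3, and 11.68 and 13.48 in oligodendrocytes of passages 11 and 3. The passage 11 oligodendrocytes stood apart from those of passage 3 for this gene, as they did for Cdk6, at 9.53 against 11.67. Neither gene was called in any comparison.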
